A study of Homo sapiens with 6 samples.

Results

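The 10 genes described here are the DNA damage checkpoint kinases ATR, ATM, CHEK1 and CHEK2, the CHEK1 adaptor CLSPN, the CDC25 phosphatases CDC25A, CDC25B and CDC25C, and the inhibitory kinases WEE1 and PKMYT1. They were chosen by name, with earlier results of these data known. Matching by Ensembl identifier gave 10 of the 58825 rows of the gene table. RNA was sequenced from SKOV3, a human epithelial ovarian cancer cell line, 48 h after transient transfection with a small interfering RNA against EIF5A2 (si-EIF5A2, n = 3) or with a negative control (NC, n = 3). EIF5A2 encodes a translation factor. Both groups were cells of the same line without any other named agent, so the values describe 1 cell line after 1 duration of silencing. The labels do not say whether the libraries of a group came from separate cultures, and the p-values then measure only the spread between these libraries.

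In the damage response, ATM is activated at DNA double-strand breaks and phosphorylates CHEK2, while ATR is activated on single-stranded DNA at stalled forks and phosphorylates CHEK1 with the help of CLSPN (claspin). Both checkpoint kinases act on the CDC25 phosphatases, which remove the inhibitory phosphates that WEE1 and PKMYT1 place on the cyclin-dependent kinases CDK1 and CDK2. The balance of CDC25 against WEE1 and PKMYT1 sets the timing of entry into S phase and mitosis, and the mRNA of several of these genes is known to vary with the cell cycle.

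Promoter windows of RefSeq (GRCh38.p14; 250 bases before to 50 after a gene start, 300 in all) were given for 8 of the 10 genes in 17 windows. WEE1 and PKMYT1 had no entry. Each window was read on both strands for 3 short motifs known from cell cycle promoters: the cell cycle homology element CHR (TTTGAA), the CCAAT box (CCAAT) and an E2F site (TTTGGCGC, TTTCCCGC, TTTCGCGC or TTTGCCGC). Printed here is 1 window for each of the 4 genes that held a CHR or an E2F site. Each runs 5′ to 3′ on the gene's strand, with motif matches in capitals (ATTGG and GCGGGAAA are CCAAT and TTTCCCGC on the other strand); no matches overlap.
CDC25C (chr5:138331755-138332054, minus strand): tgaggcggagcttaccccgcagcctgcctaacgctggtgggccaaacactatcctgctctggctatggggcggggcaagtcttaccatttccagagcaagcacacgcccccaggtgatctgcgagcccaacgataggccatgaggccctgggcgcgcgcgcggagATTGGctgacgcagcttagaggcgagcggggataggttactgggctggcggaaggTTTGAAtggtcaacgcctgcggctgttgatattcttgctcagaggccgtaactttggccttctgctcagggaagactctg
ATM (chr11:108222817-108223116, plus strand): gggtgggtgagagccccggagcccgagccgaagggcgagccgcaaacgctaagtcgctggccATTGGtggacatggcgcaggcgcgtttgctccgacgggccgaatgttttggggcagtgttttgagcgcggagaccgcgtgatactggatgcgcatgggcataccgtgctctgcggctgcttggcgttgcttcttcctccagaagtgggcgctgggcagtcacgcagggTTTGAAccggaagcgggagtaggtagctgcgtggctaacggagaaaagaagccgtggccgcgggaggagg
CDC25A (chr3:48188368-48188667, minus strand): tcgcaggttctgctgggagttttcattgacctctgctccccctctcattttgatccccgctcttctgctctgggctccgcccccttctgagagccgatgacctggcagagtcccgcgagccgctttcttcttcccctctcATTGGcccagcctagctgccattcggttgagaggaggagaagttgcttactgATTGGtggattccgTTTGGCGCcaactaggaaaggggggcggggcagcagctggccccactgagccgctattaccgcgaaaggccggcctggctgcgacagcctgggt
CLSPN (chr1:35769929-35770228, minus strand): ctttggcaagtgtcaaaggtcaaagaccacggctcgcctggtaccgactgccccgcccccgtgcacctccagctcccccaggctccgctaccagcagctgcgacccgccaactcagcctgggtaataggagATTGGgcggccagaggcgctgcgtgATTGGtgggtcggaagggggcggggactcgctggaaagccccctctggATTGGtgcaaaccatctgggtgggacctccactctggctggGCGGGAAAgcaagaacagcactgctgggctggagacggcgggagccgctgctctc
In these windows the CHR began 30 bases before the start in CDC25C and 20 bases before it in ATM. The same CHR of CDC25C lay 43 bases after the start in a window set on another start of that gene (chr5:138331828-138332127, not printed), which also held 3 CCAAT boxes. The E2F site began 44 bases before the start in CDC25A and 5 bases before it in CLSPN. A CHR was in a window of 2 of the 8 genes against 18.2% of all 27305 genes with a window, an E2F site in 2 of the 8 against 4.0%, and a CCAAT box in 7 of the 8, all but ATR, against 39.7%. Of the 35116 single windows, 15.2% held a CHR, 3.3% an E2F site and 34.6% a CCAAT box. The 8 genes had 17 windows and the 27305 genes had 35116. A gene of the 8 thus had more windows on average in which a match could occur, and the shares by gene are not like for like. A match is a run of letters and not a measured binding site.

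The libraries held between 46900204 and 74142267 estimated counts. Counts from 3 to 60 recurred at a spacing of about 3.76, which was taken as the worth of 1 sequenced fragment. This worth was inferred and is not given by the sources. On that basis 3 fragments, the least taken as detected, came to 0.155 to 0.24 CPM. CPM are counts scaled to the same library total, here with edgeR's TMM factors, which lay between 0.985 and 1.01. The correlation of log2 CPM was 0.964 to 0.974 within a group and 0.929 to 0.938 between groups, and no library stood apart from its group. EIF5A2 itself was at 27.8, 29.8 and 29.9 CPM in NC and at 2.76, 4.04 and 4.27 CPM in si-EIF5A2 libraries, which is 12.7% of the control mean. Of 6 epithelial markers, KRT8 and KRT18 were abundant (608 and 418 CPM in NC), ERBB2 was at 45.9 CPM, and KRT19, EPCAM and CDH1 were at 3.22, 1.55 and 0.663 CPM; KRT8 fell to 377 CPM after knockdown and the other 5 were not called. KRT19, EPCAM and CDH1 were thus low for an epithelial line. Whether ERBB2 at 45.9 CPM is usual for SKOV3 was not tested. The cell line is named as in the labels, with no further check of its identity. Of 7 markers of leukocytes, endothelium and fibroblasts, PTPRC and CD3E were at 0 in all 6 libraries, and the 7 together summed to 1.94 to 2.37 CPM in NC and 0 to 1.46 CPM after knockdown. PECAM1, an endothelial marker, made up most of that sum in NC, at a mean of 1.87 CPM, and had a mean of 0.318 CPM after knockdown. In the si-EIF5A2 libraries it was at 0, 0.287 and 0.667 CPM, where the sums were 0, 0.441 and 1.46 CPM.

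All 10 genes passed the filter on low counts, and 9 of them changed after EIF5A2 knockdown, 8 downward and 1, ATM, upward. A change was called at an adjusted p under 0.05 in edgeR's quasi-likelihood test (Benjamini-Hochberg over 16208 genes) together with a fold change over 1.5. By the same rule 24.6% of all genes tested changed, 13.6% downward and 11.1% upward. The median log2 fold change was -1.67 over the 10 genes and -0.01 over all genes tested. Because the 10 genes were chosen with earlier results of these data known, they are not an independent set. In every one of the 10 genes the range of CPM in NC lay apart from that in si-EIF5A2 libraries, which was so for 51.2% of all genes. CDC25C had the largest fall of the 10 and CDC25A and WEE1 the smallest falls that were called.

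**Figure D1:**
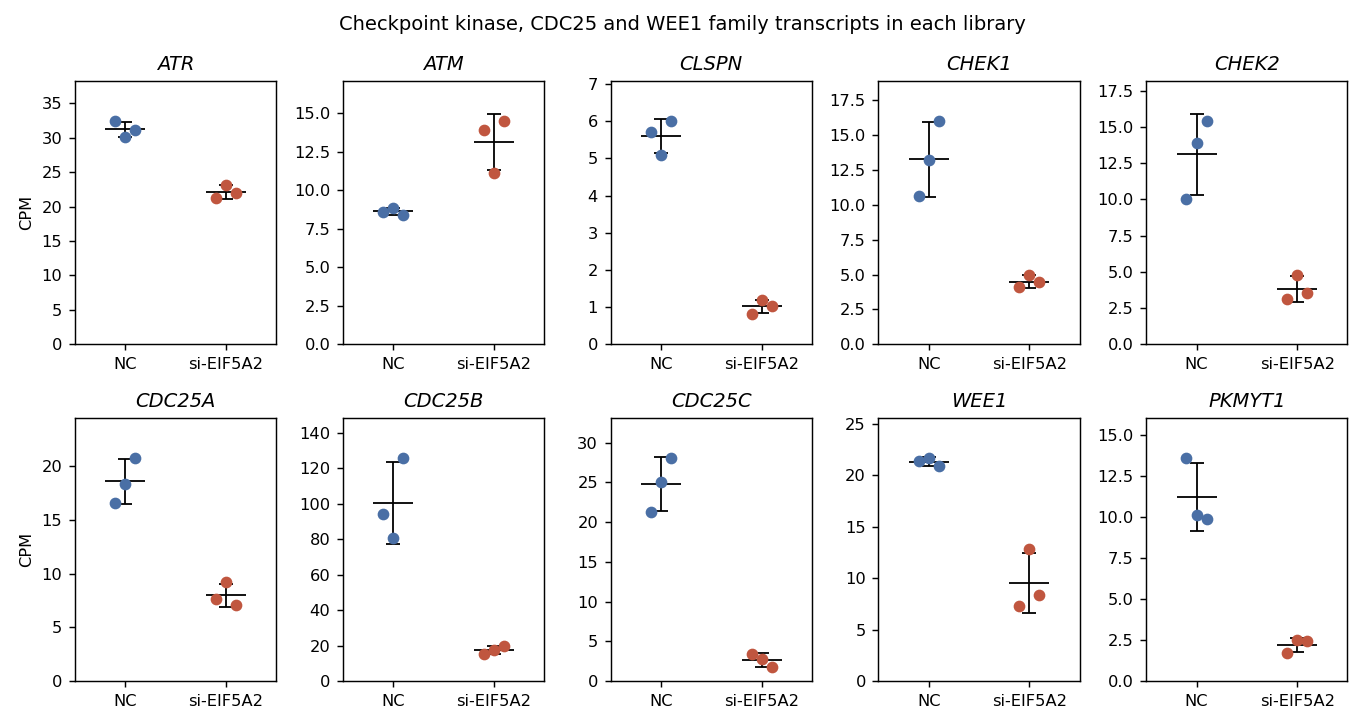
Expression of the 10 genes in each library, in CPM on an axis from 0 that differs between panels. Points are the 3 NC (blue) and 3 si-EIF5A2 (red) libraries, the wide bar is the mean and the whiskers are 1 SD; the 2 groups are apart in every panel, with the si-EIF5A2 points higher in ATM (11.1 to 14.5 against 8.4 to 8.88 CPM) and lower in the other 9.

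The apical kinases ATR and ATM had differences of opposite sign. ATR (ENSG00000175054, chr3:142449235-142578826) was at 32.4, 30.1 and 31.1 CPM in NC and at 21.2, 23.2 and 22 CPM after knockdown. Mean CPM was 31.2 ± 1.16 in NC and 22.1 ± 0.997 after knockdown (SD over 3 libraries, as for all means here), and the log2 fold change was -0.50 ± 0.09 (SE; edgeR adjusted p = 0.0031). The groups were well apart and tight, but the 1.41-fold difference was under the 1.5-fold limit, so ATR was the only one of the 10 that was not called.

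ATM (ENSG00000149311, chr11:108222484-108369102) was at 8.62, 8.88 and 8.4 CPM in NC and at 13.9, 11.1 and 14.5 CPM in si-EIF5A2 libraries. The second si-EIF5A2 library was the lowest of its group but still above every NC library. The mean rose from 8.63 ± 0.239 to 13.2 ± 1.82 CPM, with a log2 fold change of 0.61 ± 0.14 (SE; edgeR adjusted p = 0.0103). The 1.53-fold rise stood just over the limit, and its log2 fold change came to 0.58 without the third NC library, 0.56 without the first and 0.53 without the third si-EIF5A2 library, each under 1.5-fold. Its 95% interval ran from 0.29 to 0.93. Within each library, the log2 ratio of ATR to ATM was 1.91, 1.76 and 1.88 in NC and 0.61, 1.06 and 0.60 after knockdown, so the ratio was lower in each si-EIF5A2 library than in any NC library.

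CLSPN, the adaptor through which ATR reaches CHEK1, and CHEK1 itself both fell. CLSPN (ENSG00000092853, chr1:35720218-35769967) was at 5.71, 5.10 and 6 CPM in NC and at 0.821, 1.19 and 1.04 CPM in si-EIF5A2 libraries, or 18.2% of the control mean (log2 fold change -2.46 ± 0.22 SE; edgeR adjusted p = 1.01e-04). It was the gene with the fewest estimated counts of the 10, at 42, 62 and 50 after knockdown. At the inferred worth of about 3.76 counts per fragment, the fragments behind them were fewer still. CHEK1 (ENSG00000149554, chr11:125625136-125676255), the effector kinase of the ATR branch, was at 10.6, 13.2 and 16.0 CPM in NC and at 4.07, 4.94 and 4.48 CPM after knockdown. Its mean fell from 13.3 ± 2.70 to 4.50 ± 0.437 CPM (log2 fold change -1.56 ± 0.18 SE; edgeR adjusted p = 4.03e-04). The log2 ratio of CLSPN to CHEK1 in one library went from -1.22 ± 0.29 in NC to -2.11 ± 0.12 after knockdown, and the ranges did not overlap.

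CHEK2 (ENSG00000183765, chr22:28687743-28742422), the effector kinase of the ATM branch, fell while ATM rose. It was at 10, 13.9 and 15.4 CPM in NC and at 3.13, 4.79 and 3.52 CPM in si-EIF5A2 libraries, 29.1% of the control mean (log2 fold change -1.78 ± 0.23 SE; edgeR adjusted p = 5.94e-04). The first NC library was the lowest control for both CHEK1 and CHEK2, and it was still more than 2 times the highest si-EIF5A2 library. The log2 ratio of CHEK1 to CHEK2 was 0.02 ± 0.08 in NC and 0.25 ± 0.18 after knockdown with overlapping ranges. All 7 annotated CHEK2 pseudogenes and both WEE1 pseudogenes were at 0 counts in all 6 libraries.

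The CDC25 phosphatases all fell, with log2 fold changes between -3.23 and -1.22. CDC25A (ENSG00000164045, chr3:48157146-48188402), which acts on CDK2 in early S phase as well as later, was at 16.6, 18.4 and 20.8 CPM in NC and at 7.63, 9.18 and 7.11 CPM after knockdown. It fell to 42.8% of its control mean (log2 fold change -1.22 ± 0.15 SE; edgeR adjusted p = 4.65e-04). CDC25B (ENSG00000101224, chr20:3786772-3806121), which is known for starting CDK1 activation at the centrosome, was at 94.5, 80.9 and 126 CPM in NC and at 15.4, 17.3 and 20.0 CPM in si-EIF5A2 libraries. The controls were spread widely, yet the mean after knockdown, 17.6 ± 2.33 CPM, was 17.5% of that in NC (log2 fold change -2.52 ± 0.19 SE; edgeR adjusted p = 6.1e-05).

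CDC25C (ENSG00000158402, chr5:138285265-138338355), the phosphatase that acts on CDK1 with cyclin B at the entry into mitosis, was at 21.3, 25 and 28.1 CPM in NC and at 3.36, 2.82 and 1.73 CPM after knockdown. It retained 10.6% of its control mean, from 24.8 ± 3.42 to 2.64 ± 0.832 CPM, with a log2 fold change of -3.23 ± 0.25 (SE; edgeR adjusted p = 7e-05). Its 95% interval, -3.82 to -2.64, did not overlap that of CDC25A, -1.57 to -0.88, although a difference between the 2 genes was not itself tested.

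WEE1 and PKMYT1, the kinases that oppose CDC25, fell as well. WEE1 (ENSG00000166483, chr11:9573681-9593457), a nuclear kinase, was at 21.4, 21.7 and 20.9 CPM in NC and at 7.33, 12.8 and 8.38 CPM in si-EIF5A2 libraries. The controls were within 1 CPM of each other, while the second si-EIF5A2 library stood above the other two, and the mean fell from 21.3 ± 0.385 to 9.52 ± 2.92 CPM (log2 fold change -1.16 ± 0.20 SE; edgeR adjusted p = 0.00302). PKMYT1 (ENSG00000127564, chr16:2968024-2980539), its membrane-bound relative that phosphorylates CDK1, was at 13.6, 10.1 and 9.89 CPM in NC and at 1.70, 2.47 and 2.42 CPM after knockdown, 19.6% of the control mean (log2 fold change -2.35 ± 0.22 SE; edgeR adjusted p = 1.2e-04). PKMYT1 shares 24.5% of its exon bases with PAQR4 on the opposite strand, where counts were 502, 1200 and 251 in NC and 477, 921 and 668 after knockdown. Smaller overlaps were annotated for CDC25C with FAM53C (8.8% of exon bases), CHEK2 with HSCB (6.7%) and CHEK1 with STT3A (1.2%), and for ATR with a pseudogene (16.4%) that had no counts in 5 of the 6 libraries. The sources used here do not say whether counting used strand, and without it reads over bases shared with a gene on the other strand cannot be told apart. STT3A lies on the same strand as CHEK1, where strand would not separate them. Over the 6 libraries FAM53C was at 3395 to 5425 counts, HSCB at 353 to 739 and STT3A at 10676 to 15762. After knockdown CDC25C was at 83 to 172 counts, CHEK2 at 160 to 250 and CHEK1 at 208 to 258, well below these neighbours. How many reads came from the shared bases was not tested.

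**Figure D2:**
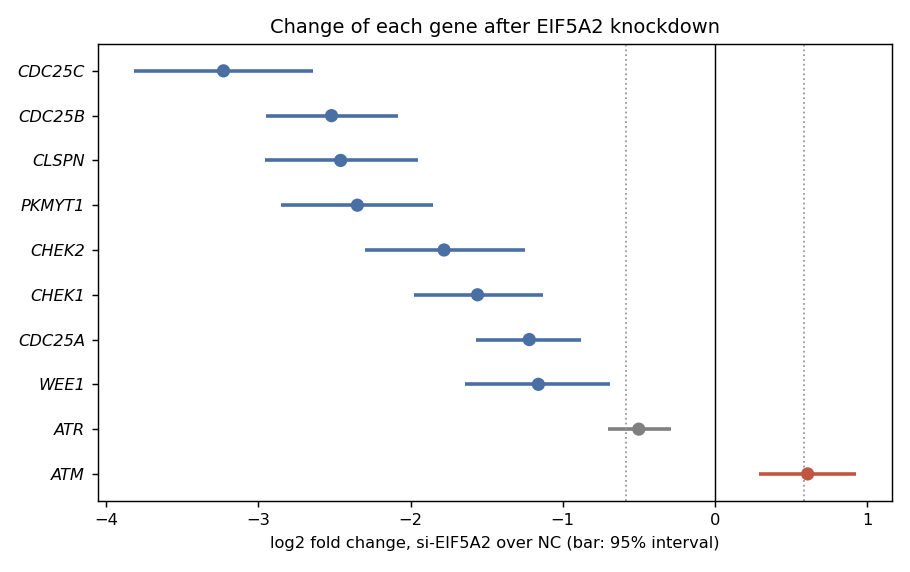
Log2 fold change of each gene, si-EIF5A2 over NC, from edgeR's quasi-likelihood fit, with its 95% interval as a bar. Blue genes were called lower, red higher and grey not called, and the dotted lines mark 1.5-fold in either direction; CDC25C is lowest at -3.23, ATR at -0.50 lies inside the lines and ATM at 0.61 lies at the upper one.

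Because CDC25 and WEE1 act against each other, the ratio of their transcripts was compared within libraries, where the scaling of a library has no effect. Ratios of CDC25 to PKMYT1 were not computed, so the ratios to WEE1 describe only part of that balance. PKMYT1 had a log2 fold change of -2.35 against -1.16 for WEE1, and CDC25A, CDC25B and CDC25C had -1.22, -2.52 and -3.23. The log2 ratio of CDC25A to WEE1 was -0.20 ± 0.18 in NC and -0.22 ± 0.27 after knockdown (SD, n = 3 each), a difference of -0.02 with overlapping ranges (2-sided exact permutation p = 0.90). CDC25B to WEE1 went from 2.21 ± 0.35 to 0.92 ± 0.43, and CDC25C to WEE1 from 0.21 ± 0.22 to -1.85 ± 0.63. The log2 ratio of CDC25C to WEE1 was thus near 0 in the controls (-0.01, 0.21 and 0.43) and far below it in each library after knockdown (-1.12, -2.17 and -2.25).

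The ratio of PKMYT1 to WEE1 went from -0.94 ± 0.25 to -2.07 ± 0.29, and here too the ranges of the groups were apart. In 5 of the 7 ratios computed, the ranges of the groups were apart, with a 2-sided exact permutation p of 0.10, the smallest that 3 against 3 libraries allow, and 0.14 after Benjamini-Hochberg adjustment over the 7. The ratio of CHEK1 to CHEK2 gave an exact p of 0.30 (adjusted 0.35), with a difference of 0.23. None of the ratios could pass 0.05 in a design of this size.

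**Figure D3:**
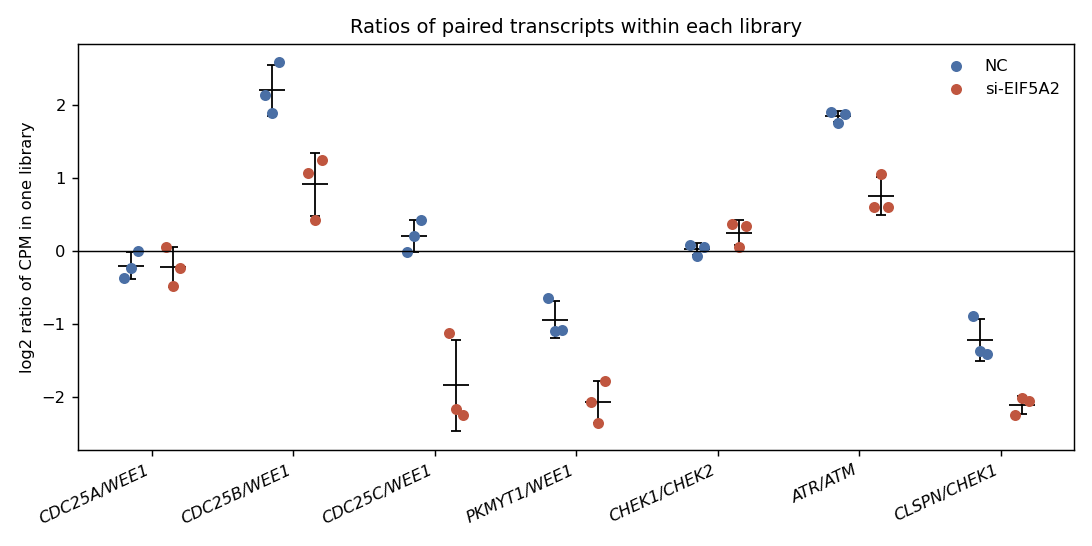
Log2 ratio of CPM of 2 genes within one library for 7 pairs; points are single libraries (NC blue, si-EIF5A2 red), the wide bar is the mean and the whiskers are 1 SD. CDC25A/WEE1 and CHEK1/CHEK2 overlap between the groups, while the other 5 are lower in every si-EIF5A2 library, with CDC25C/WEE1 showing the largest difference (-2.05).

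Levels of different genes were compared as CPM per kilobase (kb) of annotated exon. In NC, CDC25B was highest at 23.3, followed by CDC25C at 7.42, CDC25A at 4.52, CHEK2 at 2.91, ATR at 2.50, WEE1 at 2.31, PKMYT1 at 2.22, CHEK1 at 2.02, CLSPN at 1.04 and ATM at 0.36 CPM per kb. Among CHEK2, ATR, WEE1, PKMYT1 and CHEK1 the ranges over the NC libraries overlapped for every pair except ATR with WEE1. No order is given among them other than ATR above WEE1. After knockdown CDC25B remained highest at 4.07 CPM per kb. CDC25A at 1.94 and ATR at 1.77 came next with overlapping ranges, CDC25C was at 0.79 among WEE1, CHEK2 and CHEK1, and CLSPN at 0.188 was lowest in place of ATM at 0.55. The exons of all annotated transcripts together were used as length, which comes to 23972 bases for ATM and lowers its level per kb.

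Genes around the 10 were described with 7 lists by role, also written with earlier results of these data known. The lists held 89 genes in all, each of which was tested. Of these, 40 changed, 31 downward and 9 upward. Over all genes tested 24.6% changed, 13.6% downward and 11.1% upward. The share called was 52.9% for ATR-CHEK1 sensors, 27.3% for ATM-CHEK2 sensors and 70% for the CDK complexes. It was 58.3% for kinases and phosphatase regulators, 38.5% for ubiquitin genes, 28.6% for 14-3-3 genes and 36.8% for p53 targets. The ATM-CHEK2 and 14-3-3 lists were thus near the share of all genes. Among 17 sensors and mediators of the ATR-CHEK1 branch 8 fell, 1 rose and 8 were not called, with a median log2 fold change of -0.40. TIMELESS, a fork protection protein, fell from 31.9 ± 5.17 to 8.34 ± 2.03 CPM, and RFC3, a subunit of the clamp loader, from 27.3 ± 4.88 to 8.74 ± 0.834 CPM. HUS1, part of the 9-1-1 clamp, rose from 13.5 ± 0.281 to 20.4 ± 2.17 CPM, 1.51-fold, and was under the 1.5-fold limit in 5 of 15 other fits. Among 11 sensors and mediators of the ATM-CHEK2 branch 3 fell and 8 were not called (median 0.02). MDC1, which binds the phosphorylated histone H2AX at breaks, went from 46.6 ± 3.20 to 17.9 ± 0.359 CPM, and H2AX itself from 115 ± 21.9 to 44.3 ± 1.82 CPM.

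Of 10 genes for CDK1, CDK2, their cyclins and the CDK-activating kinase, 6 fell, 1 rose and 3 were not called (median -1.51). The 3 were CDK7, CCNH and MNAT1, which form the CDK-activating kinase and are not substrates of CDC25 or WEE1. CCNA2 (cyclin A2) fell from 85.1 ± 12.2 to 7.72 ± 1.17 CPM and CCNB2 (cyclin B2) from 86.5 ± 5.75 to 12.9 ± 1.31 CPM. CCNE1 (cyclin E1), the partner of CDK2 at the entry into S phase, rose from 8.15 ± 0.109 to 28.1 ± 1.88 CPM. CCNE2, the other E-type cyclin gene, which was named after its values were seen, fell from 4.95 to 0.821 CPM (log2 fold change -2.59).

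Of 12 kinases and phosphatase regulators that act on CDC25, WEE1 and PKMYT1, 6 fell, 1 rose and 5 were not called (median -0.73). PLK1, which activates CDC25C and marks WEE1 for destruction, fell from 167 ± 17.9 to 19.5 ± 3.69 CPM, and MASTL, which restrains the phosphatase PP2A in mitosis, from 13.9 ± 2.01 to 3.34 ± 0.787 CPM. MARK3, a kinase that phosphorylates CDC25C at its 14-3-3 binding site, rose from 51.9 ± 8.61 to 92.9 ± 4.04 CPM. Of 13 ubiquitin ligase and deubiquitinase genes 5 fell and 8 were not called (median -0.02). CCNF (cyclin F), a substrate receptor of a ubiquitin ligase, fell from 42.3 ± 0.877 to 6.79 ± 0.789 CPM and BTRC, which recognises CDC25A and WEE1 for degradation, from 26.4 ± 1.59 to 8.67 ± 1.33 CPM. Among 7 genes of 14-3-3 proteins, which hold phosphorylated CDC25 in the cytoplasm, YWHAH fell from 104 ± 2.25 to 37.8 ± 1.88 CPM, YWHAG rose from 116 ± 5.53 to 216 ± 7.66 CPM and the other 5 were not called (median 0.08).

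The 19 genes known as p53 targets gave 2 falls, 5 rises and 12 without a call (median 0.12). PLK2 fell from 449 ± 34.9 to 228 ± 13.4 CPM and DDB2 from 56.1 ± 1.58 to 29.5 ± 4.65 CPM, while BTG2 rose from 11.8 ± 0.372 to 29.5 ± 3.45 CPM and BBC3, which encodes the cell death protein PUMA, from 16.9 ± 2.05 to 41.6 ± 3.47 CPM. SKOV3 cells, as the libraries are labelled, are known to lack functional p53.

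**Figure D4:**
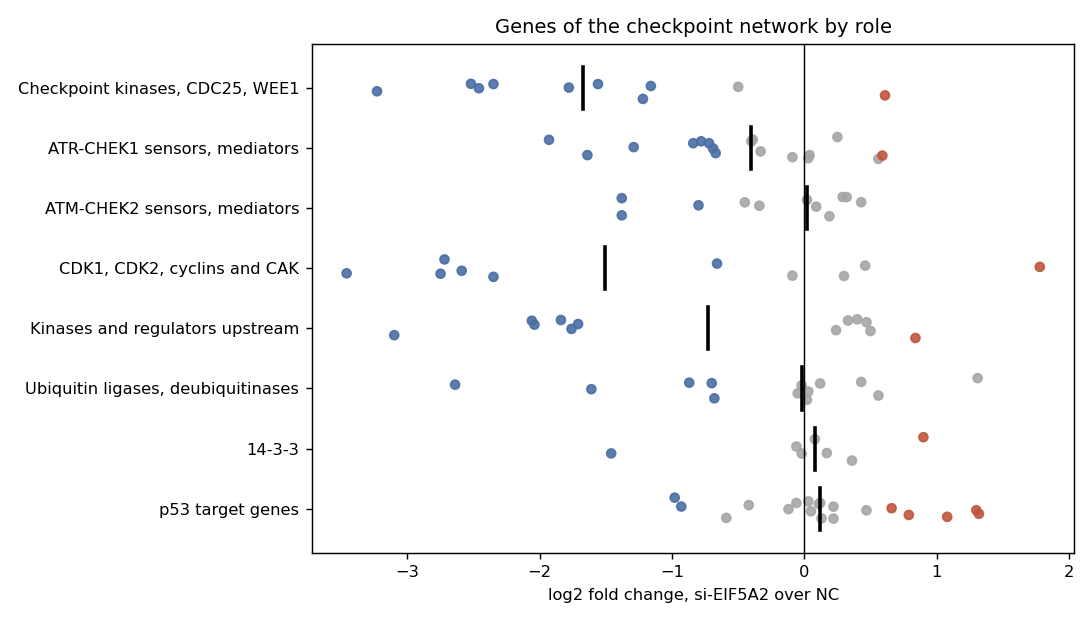
Log2 fold change, si-EIF5A2 over NC, of the 10 genes (top) and of the genes of 7 lists by role; each point is a gene (blue called lower, red called higher, grey not called; height within a row is arbitrary) and the black bar is the median of the row. The medians are -1.67 for the 10 genes, -1.51 for CDK1, CDK2, their cyclins and the CDK-activating kinase (CAK), and between -0.73 and 0.12 for the other 6 lists.

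Most markers of the cell cycle fell, as did 8 of the 10 genes, while ATM rose and ATR was not called. Of all genes tested, 13.6% were called lower. Of 42 S phase markers 33 fell and none rose (median log2 fold change -1.47), and their summed level was 1420 to 1590 CPM in NC and 704 to 717 CPM after knockdown. Of 53 markers of G2 and mitosis 49 fell and none rose (median -2.38), with sums of 5160 to 5490 CPM in NC and 1750 to 1940 CPM after knockdown. Both marker lists share genes with the lists by role, such as CDK1 and CCNB2 for G2 and mitosis and CCNE2 for S phase. The falls in these lists are thus not all separate observations. The 10 genes themselves were left out of both marker lists and summed to 227 to 283 CPM in NC and 78.5 to 89.8 CPM after knockdown. The part of these markers in the changes of the 10 genes was not tested, and in bulk RNA fewer cells of a phase and less RNA per cell cannot be told apart.

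As a description of how the levels ran over the 6 libraries, the gene most like each changed member was sought among the 98 other genes of the lists and members by Pearson's r of log2 CPM. The nearest were CDK1 for CDC25C (r = 0.996), CCNB2 for CLSPN (0.997), BORA, the Aurora A activator, for CHEK1 (0.997), MASTL for CDC25B (0.993) and CHEK1 for CHEK2 (0.993). CHEK2 was nearest to CDC25A (0.992), ATR to PKMYT1 (0.995), DDB2 to WEE1 (0.990) and MDM2, a p53 target and ligase, to ATM (0.985). All 6 libraries enter each r, so each r includes the difference between the groups.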

How the data were processed

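Libraries of mRNA from 6 SKOV3 samples (NC, n = 3; si-EIF5A2, n = 3) were sequenced as paired ends, and the authors deposited a gene table of estimated counts in whole numbers. Their methods name StringTie and ballgown for expression; how the table was made, and the aligner, annotation and genome build, are not given in the sources used here; the submitters' processing notes name Bowtie 0.12.2 and mouse builds, which do not match human identifiers. Samples were grouped by the treatment label. Of 58825 identifiers, 58552 were found in GENCODE 29 (GRCh38), the source of positions and exon lengths. Counts were analysed with edgeR 4.0.16 in R 4.3.3 (filterByExpr, TMM, robust quasi-likelihood fit, all 6 libraries, no covariate), and Benjamini-Hochberg adjustment ran over all genes tested. If 1 fragment gives about 3.76 counts, as inferred from the spacing of the counts, counting precision is lower than the counts imply. Calls needed an adjusted p under 0.05 and over 1.5-fold. Ratios used log2 CPM with a prior count of 2. Members and lists were chosen with earlier results of these data known; the S phase and G2/M lists came from Seurat 5.3.0. Named in each list were up to 2 called genes with the largest fall and 2 with the largest rise at a mean of 5 CPM or more, and the gene most like each called member. Alternatives were DESeq2 1.42.0, other normalizations, filters and thresholds, and leaving out each library. One planned marker of another cell type is not reported here.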

Additional observations from a re-analysis of the deposited data

How the results depend on the processing

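The calls of ATM and ATR depended on the processing. The number called upward was 0 without a filter on low counts, 0 at the 2-fold threshold, and 0 to 1 when single libraries were left out. The 2-fold threshold, taken from the authors' methods, used edgeR's p under 0.05 without adjustment. ATM had a log2 fold change of 0.58 without a filter, and 0.53 to 0.72 over all its 15 alternatives (adjusted p 0.00322 to 0.0417). ATR was called downward at an adjusted p alone, which gave 10 genes called and 9 downward. The other 8 genes kept their direction and their call under every alternative run. The pathway genes called numbered 24 at the 2-fold threshold and 39 to 42 with single libraries left out, against 40. At that threshold calls came to 3 in place of 9 among ATR-CHEK1 sensors, 3 in place of 5 among ubiquitin genes, 1 in place of 2 among 14-3-3 genes and 3 in place of 7 among p53 targets; at an adjusted p alone they came to 5 in place of 3 among ATM-CHEK2 sensors and 11 in place of 7 among kinases and phosphatase regulators. Over all genes, 3992 calls became 2370 at the 2-fold threshold and 5974 at an adjusted p alone. HUS1 was under 1.5-fold at 0.58 with upper quartile scaling or a minimum of 10 counts, at 0.56 without a filter, at 0.58 without the first NC library and at 0.50 without the first si-EIF5A2 library. The ratio of CDC25A to WEE1 turned positive, 0.08 without the third NC library and 0.11 without the second si-EIF5A2 library, within a range of -0.16 to 0.11. The cause was not tested. No effect shared by replicate number was seen: deviations of same-numbered libraries from their group means correlated at -0.0244, 0.00522 and -0.00269. These values cannot show whether same-numbered libraries were handled together. With a replicate block, EIF5A2 was at -3, 9 of the 10 genes were called, 41 pathway genes were called and 3731 genes were called in all. Depth limits CLSPN most, at 42 to 62 counts after knockdown.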
